A study of Mus musculus with 7 samples.

Results

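The 10 genes described here are markers of fibro-adipogenic progenitors and fibroblasts, the connective tissue cells that lie between muscle fibres: Pdgfra, Ly6a, Cd34, Pi16, Dpp4, Dpt, Dcn, Lum, Gsn and Cpxm1. They were chosen by gene symbol as markers of these cells, with collagens left out, and all 10 were found among the 53819 genes of the deposited table. RNA from the quadriceps, the large muscle at the front of the thigh, was sequenced in 3 libraries of mice given AAV8-Alb-IGFBP1 (AAV8-IGFBP1) and 4 libraries of mice given AAV8-Alb-Null (AAV8-Null). All were wild type male C57BL/6J mice, given 200 µl of vector through the tail vein when 8 weeks old and killed 54 days after that. The vector is an adeno-associated virus of a serotype that favours the liver, per the series' description, and whether the null vector encodes any protein is not stated. IGFBP1 circulates in blood, comes chiefly from hepatocytes and binds the insulin-like growth factors. The replicates carry numbers, but whether every one was its own animal is not stated, and p-values here reflect the spread among these samples, which may be technical.

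Fibro-adipogenic progenitors are mesenchymal cells that carry the PDGF receptor alpha and the surface protein Sca-1 (the product of Ly6a). After injury they multiply, make matrix and trophic factors for the muscle stem cells, and can turn into fibroblasts or fat cells. A subset around vessels and in fascia, marked by Pi16 and Dpp4, is regarded as a common reservoir of fibroblasts in many mouse tissues. Several of the 10 genes are also used by other cells: Cd34 and Ly6a by endothelium, Dcn and Lum by tendon cells, and Gsn by muscle fibres and many others. In bulk RNA, fewer cells of a type and less RNA per cell cannot be told apart.

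Cpxm1, which encodes a secreted protein of the metallocarboxypeptidase family, fell in AAV8-IGFBP1 muscle to 0.540 of its AAV8-Null level, and Pi16, a secreted or membrane-bound peptidase inhibitor, lay at 0.566 of it without passing the test. The call for Cpxm1 was lost without each of the 7 libraries in turn (edgeR adjusted p 0.0689 to 0.156). Pdgfra, Ly6a, Dcn and Dpp4 had fold changes between 0.933 and 1.03 that did not pass it. At an adjusted p under 0.05 in edgeR's quasi-likelihood test, 1 of the 10 markers fell and 0 rose; of all 14935 genes tested, 0.583% were called, 0.194% lower and 0.388% higher. At an unadjusted edgeR p under 0.05, 4 of the 10 were lower (Cpxm1, Pi16, Cd34 and Gsn) and 0 higher, against 12.9% of all genes in either direction and 6.91% lower. DESeq2 called 2 of the 10 lower and 0 higher, where it called 3.28% of the genes it tested (1.71% lower and 1.57% higher), and limma-voom called 0, where it called 0.415% (0.121% lower and 0.295% higher). The log2 fold change (AAV8-IGFBP1 over AAV8-Null) was below 0 for 9 of the 10, with a median of -0.31 (-0.20 without AAV8-Null replicate 2), where the median over all genes tested was -0.0010 and 50.1% of them lay below 0. In 3 of the 10 (Cpxm1, Pi16 and Gsn) every AAV8-IGFBP1 library lay below every AAV8-Null library; 12.3% of all genes had groups that did not overlap, 6.01% with AAV8-IGFBP1 lower. All 10 passed the filter on low counts.

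**Figure D1:**
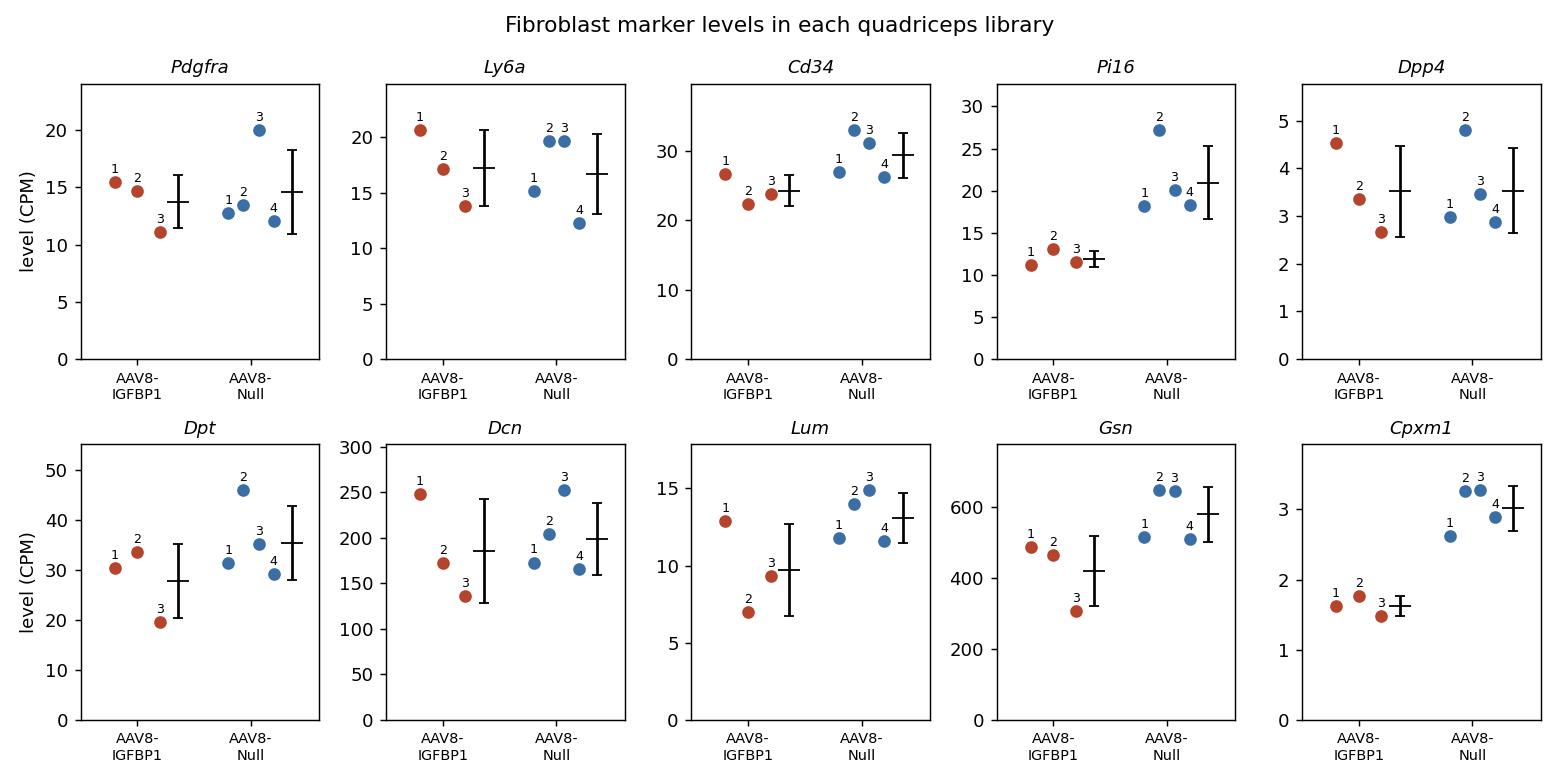
Level of each marker in CPM (counts per 1000000 of the scaled library total) in the 3 AAV8-IGFBP1 libraries (red) and the 4 AAV8-Null libraries (blue); the digit beside a point is the replicate number and the black bar is the mean with 1 SD. Cpxm1, Pi16 and Gsn are the panels in which all red points lie below all blue points.

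Library totals ranged from 38947453 to 51210360 estimated counts. Muscle fibre genes were abundant in every library of this quadriceps RNA. Together, 16 fibre genes such as Acta1 and Ckm summed to 215988 to 236912 CPM in AAV8-IGFBP1 and 197789 to 226371 CPM in AAV8-Null. Igfbp1 itself was present in muscle at 3.14 to 34.5 CPM in the 3 AAV8-IGFBP1 libraries and at 0 in AAV8-Null libraries 1 to 3, with 0.195 CPM in AAV8-Null replicate 4. AAV8-IGFBP1 replicate 2, in which Igfbp1 was highest, stood apart from the others on the first principal component (27.2% of the variance; -45.2 against -12.6 to 25.7) and also had the highest level of adipocyte markers.

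Pdgfra encodes the receptor that defines the lineage. It was measured at 15.5, 14.7 and 11.1 CPM in AAV8-IGFBP1 replicates 1 to 3 and at 12.8, 13.5, 20.1 and 12.1 CPM in AAV8-Null replicates 1 to 4. AAV8-Null replicate 3 was the highest library and AAV8-IGFBP1 replicate 3 the lowest, and the groups overlapped. The mean was 13.8 ± 2.32 CPM in AAV8-IGFBP1 (SD, n = 3) and 14.6 ± 3.68 CPM in AAV8-Null (SD, n = 4). Its log2 fold change was -0.082 (SE 0.20, 95% interval -0.54 to 0.37, edgeR adjusted p = 0.904). Without AAV8-Null replicate 3 it was 0.11 and without AAV8-IGFBP1 replicate 3 it was 0.052, so its sign depended on which libraries were used. Of the 7 PDGF ligand and receptor genes tested, 0 were called by edgeR, DESeq2 or limma-voom, 1 had an unadjusted edgeR p under 0.05, and the median log2 fold change was -0.082, or -0.18 when AAV8-IGFBP1 replicate 1 was left out and -0.0080 when replicate 3 of that group was. That gene was Pdgfb, a ligand made by endothelium (log2 fold change -0.33, edgeR adjusted p = 0.370), followed by Pdgfrl (-0.55, 0.579) and Pdgfc (-0.28, 0.737).

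Ly6a encodes Sca-1, a small lipid-anchored surface protein used to sort these cells. Its level was 20.7, 17.2 and 13.8 CPM in AAV8-IGFBP1 replicates 1 to 3 and 15.1, 19.7, 19.7 and 12.3 CPM in AAV8-Null replicates 1 to 4. The highest library was AAV8-IGFBP1 replicate 1 and the lowest AAV8-Null replicate 4, so the groups overlapped over nearly the whole range. Ly6a was the only marker with a log2 fold change above 0 (0.045, SE 0.20, 95% interval -0.42 to 0.51, edgeR adjusted p = 0.950). Its estimated counts were not whole in 5 of the 7 libraries (tolerance 1e-06). The same was seen for Gsn in 4 libraries, Dcn and Pi16 in 3 each, Pdgfra in 2 and Cd34 in 1. Reads shared between genes can give such values, so the value of Ly6a is uncertain to an extent that was not measured. Of 7 tested genes of the Ly6 family 0 were called by any of the 3 tools and 0 had an unadjusted edgeR p under 0.05; the median was 0.045. The lowest p-values among them were those of Ly6c2 (0.86, edgeR adjusted p = 0.680), Ly6e (0.097, 0.777) and Ly6c1 (-0.057, 0.8289).

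Cd34, a sialomucin gene of progenitors and of endothelium, had 26.6, 22.3 and 23.8 CPM in AAV8-IGFBP1 replicates 1 to 3, against 26.9, 33.0, 31.1 and 26.2 CPM in AAV8-Null replicates 1 to 4. AAV8-IGFBP1 replicates 2 and 3 lay below all AAV8-Null libraries, and replicate 1 lay between AAV8-Null replicates 4 and 1. It averaged 24.2 ± 2.21 CPM in AAV8-IGFBP1 (SD, n = 3) and 29.3 ± 3.29 CPM in AAV8-Null (SD, n = 4). Its log2 fold change of -0.28 had the smallest error of the 10 (SE 0.10, 95% interval -0.50 to -0.052), with an unadjusted edgeR p of 0.0207 and an edgeR adjusted p of 0.303, above 0.05. Beside it, 16 endothelial markers had a median log2 fold change of -0.062 (-0.10 when AAV8-Null replicate 2 was left out and -0.0097 when replicate 4 was) and summed to 329 to 351 CPM in AAV8-IGFBP1 and 331 to 397 CPM in AAV8-Null. Of these 16, 0 were called by any of the 3 tools and 1, Emcn, had an unadjusted edgeR p under 0.05 (-0.28, edgeR adjusted p = 0.282). None of the endothelial markers was at 0; Pecam1 lay at 37.3 to 40.0 CPM in AAV8-IGFBP1 and 37.3 to 42.4 CPM in AAV8-Null.

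Pi16 had 11.1, 13.015 and 11.5 CPM in AAV8-IGFBP1 replicates 1 to 3 and 18.2, 27.3, 20.1 and 18.3 CPM in AAV8-Null replicates 1 to 4. Every AAV8-IGFBP1 library lay below every AAV8-Null library, and the spread within AAV8-IGFBP1 was narrow; AAV8-Null replicate 2 was the highest. The means were 11.9 ± 0.996 CPM in AAV8-IGFBP1 (SD, n = 3) and 20.95 ± 4.30 CPM in AAV8-Null (SD, n = 4). On the log2 scale the fold change was -0.82 (SE 0.15, 95% interval -1.16 to -0.48), and the edgeR adjusted p, 0.0644, was above 0.05. DESeq2's adjusted p was 4.01e-05, and over the 20 alternatives tried the adjusted p ran from 4.01e-05 to 0.262 with 3 of them past the threshold. Without AAV8-Null replicate 2, the highest library, Pi16 passed with a smaller difference (log2 fold change -0.66, edgeR adjusted p = 0.0290).

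Dpp4 encodes CD26, a surface peptidase that marks the same perivascular and fascial cells as Pi16. It had 4.54, 3.36 and 2.66 CPM in AAV8-IGFBP1 replicates 1 to 3, and 2.98, 4.81, 3.46 and 2.87 CPM in AAV8-Null replicates 1 to 4. Both groups spanned nearly the same range. The means were 3.52 ± 0.950 CPM in AAV8-IGFBP1 (SD, n = 3) and 3.53 ± 0.892 CPM in AAV8-Null (SD, n = 4), with a log2 fold change of -0.011 (SE 0.23, 95% interval -0.54 to 0.51, edgeR adjusted p = 0.990). It rested on 118 to 249 counts per library. The log2 ratio of Pi16 to Dpp4, looked at after the values were seen and therefore given without a test, was 1.29, 1.94 and 2.09 in AAV8-IGFBP1 replicates 1 to 3 and 2.59, 2.49, 2.52 and 2.65 in AAV8-Null replicates 1 to 4. All AAV8-IGFBP1 libraries lay below all AAV8-Null libraries in this ratio, AAV8-IGFBP1 replicate 1 by the most. Pi16 alone already separated the groups, and the share of all gene pairs whose ratio does so was not worked out.

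Among 17 tested genes of the universal fibroblast progenitors, a list that contains both, 14 had a log2 fold change below 0 (median -0.23). By edgeR and by limma-voom 0 of them were called, DESeq2 called 2 lower, and 8 had an unadjusted edgeR p under 0.05, all lower. The 3 with the lowest p beside Pi16 were Efhd1, a calcium-binding protein gene (log2 fold change -1.06, edgeR adjusted p = 0.0737), Anxa3, an annexin gene (-0.41, 0.171), and Stmn4 (-1.04, 0.182). Dpp6, Dpp7, Dpp8, Dpp9, Fap and Prep, the peptidase relatives of Dpp4 that passed the filter, had edgeR adjusted p-values of 0.457 or more. With Dpp4 these were 7 genes with a median log2 fold change of -0.019; 0 were called by any of the 3 tools and 0 had an unadjusted edgeR p under 0.05.

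The sequences around the annotated starts of Cpxm1, Pi16 and Dpp4 are shown because the first has the lowest fold change of the 10 and the other pair mark the same cells with different values. Each runs from 250 bases before to 50 bases after the start that RefSeq gives on GRCm38.p6, an older build than the one the counts were made on, 5′ to 3′ on the gene's strand. Capitals mark matches on either strand to the letters of the TATA box (TATAAA), of the GC box (GGGCGG), of the box named for its letters CCAAT, of the core bound by FoxO factors (GTAAACA) and of the core bound by STAT factors (TTCNNNGAA). No matches overlap in these windows.
Cpxm1 (chr2:130397580-130397879, minus strand): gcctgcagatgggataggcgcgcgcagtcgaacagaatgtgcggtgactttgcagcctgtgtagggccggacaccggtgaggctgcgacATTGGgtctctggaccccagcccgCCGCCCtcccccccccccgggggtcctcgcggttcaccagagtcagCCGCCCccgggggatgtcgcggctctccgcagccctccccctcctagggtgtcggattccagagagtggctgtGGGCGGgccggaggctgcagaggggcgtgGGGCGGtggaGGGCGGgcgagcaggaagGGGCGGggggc
Pi16 (chr17:29318632-29318931, plus strand): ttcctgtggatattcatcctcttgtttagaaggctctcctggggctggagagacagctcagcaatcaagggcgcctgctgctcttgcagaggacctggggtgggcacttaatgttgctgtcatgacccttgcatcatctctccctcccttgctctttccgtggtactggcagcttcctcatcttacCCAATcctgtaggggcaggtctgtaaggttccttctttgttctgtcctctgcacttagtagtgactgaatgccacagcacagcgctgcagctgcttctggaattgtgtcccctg
Dpp4 (chr2:62412182-62412481, minus strand): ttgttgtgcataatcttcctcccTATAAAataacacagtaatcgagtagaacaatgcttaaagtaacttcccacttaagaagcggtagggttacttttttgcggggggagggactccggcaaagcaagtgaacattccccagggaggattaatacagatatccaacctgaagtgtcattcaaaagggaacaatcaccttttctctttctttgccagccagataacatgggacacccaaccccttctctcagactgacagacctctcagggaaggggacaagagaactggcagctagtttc

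The Cpxm1 window held 6 GC boxes and 1 CCAAT box, with 72.7% G and C and a CpG content of 0.668 of that expected from its bases. Pi16 had 1 CCAAT box, 53.3% G and C and a CpG ratio of 0.141, and Dpp4 had 1 TATAAA match, 227 bases before the start, 45.3% G and C and a CpG ratio of 0.260. Over all 32851 windows of 300 bases in the table, 35.7% held a GC box, 37.4% a CCAAT box, 13.6% a TATAAA match, 3.65% the FoxO letters and 8.30% the STAT letters, and the median CpG ratio was 0.384. Neither the FoxO nor the STAT letters occurred in the 3 windows. Entries were found for 7 of the 10 markers, 9 windows in all, and the STAT letters occurred in 1 of them, that of Dpt. These matches describe the letters only.

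Dpt encodes dermatopontin, a small matrix protein that binds decorin. It had 30.4, 33.6 and 19.5 CPM in AAV8-IGFBP1 replicates 1 to 3 and 31.3, 45.9, 35.1 and 29.1 CPM in AAV8-Null replicates 1 to 4. AAV8-IGFBP1 replicate 3 lay well below the rest and AAV8-Null replicate 2 above it, while the other 5 libraries mixed. Between the groups Dpt had a log2 fold change of -0.35 (SE 0.23, 95% interval -0.89 to 0.19, edgeR adjusted p = 0.589), and it was -0.15 without AAV8-IGFBP1 replicate 3 and -0.19 without AAV8-Null replicate 2.

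Dcn encodes decorin, a small leucine-rich proteoglycan that binds collagen fibrils and TGF-beta. Its level was 248, 172 and 136 CPM in AAV8-IGFBP1 replicates 1 to 3 and 173, 204, 252 and 166 CPM in AAV8-Null replicates 1 to 4. The groups overlapped: AAV8-IGFBP1 replicate 1 was nearly as high as AAV8-Null replicate 3, the highest library. The log2 fold change was -0.099 (SE 0.23, 95% interval -0.66 to 0.46, edgeR adjusted p = 0.902). Its sign turned without AAV8-IGFBP1 replicate 3 (0.080) or AAV8-Null replicate 3 (0.037).

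Lum encodes lumican, a relative of decorin that also binds fibrillar collagen. It had 12.9, 6.97 and 9.30 CPM in AAV8-IGFBP1 replicates 1 to 3 and 11.8, 13.98, 14.9 and 11.6 CPM in AAV8-Null replicates 1 to 4. AAV8-IGFBP1 replicates 2 and 3 lay below all AAV8-Null libraries and replicate 1 among them. Lum had a log2 fold change of -0.42 (SE 0.20, 95% interval -0.87 to 0.025, edgeR adjusted p = 0.414). It was -0.68 when AAV8-IGFBP1 replicate 1 was left out and -0.24 when replicate 2 of that group was. In AAV8-IGFBP1 replicate 2 Lum was the lowest of the 7 libraries while Dcn was not, so the pair did not follow each other in that library. Of 12 tested small leucine-rich proteoglycan genes, 0 were called by any of the 3 tools, 0 had an unadjusted edgeR p under 0.05, 7 lay below 0 and the median was -0.16. That median was -0.58 without AAV8-IGFBP1 replicate 1 and turned positive without AAV8-IGFBP1 replicate 3 (0.098) or without both libraries numbered 3 (0.27). Beside Lum the lowest p-values were those of Ogn (-0.60, edgeR adjusted p = 0.469), Kera (-1.02, 0.511) and Aspn (-0.23, 0.769).

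Tendon cells use Dcn and Lum too. Lum was highest in AAV8-Null replicate 3 and lowest in AAV8-IGFBP1 replicate 2. The level of 14 tenocyte markers was highest and lowest in the libraries in which Dcn was, and shared with Lum only the highest. The mean centred log2 CPM of these markers was 0.44, -0.14 and -1.28 in AAV8-IGFBP1 replicates 1 to 3 and 0.15, 0.25, 0.97 and -0.39 in AAV8-Null replicates 1 to 4. AAV8-Null replicate 3 was thus the highest and AAV8-IGFBP1 replicate 3 the lowest, as for Dcn and Pdgfra. The tenocyte genes' summed level was 192 to 553 CPM in AAV8-IGFBP1 and 252 to 643 CPM in AAV8-Null, the log2 fold change was below 0 for 12 of the 14 (median -0.41), and none was at 0 in any library. Their median was -0.92 without AAV8-IGFBP1 replicate 1, -0.0065 without AAV8-IGFBP1 replicate 3 and 0.28 without both libraries numbered 3. By each of the 3 tools 0 of the 14 were called, and 0 had an unadjusted edgeR p under 0.05. With this level as a covariate the log2 fold changes of Pdgfra (0.15), Dcn (0.15) and Dpp4 (0.16) turned positive and those of Gsn (-0.29) and Lum (-0.30) were closer to 0, while those of Cpxm1 (-0.82, edgeR adjusted p = 0.0904) and Pi16 (-0.80, 0.142) moved little.

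Gsn encodes gelsolin, a calcium-dependent protein that cuts and caps actin filaments and is also secreted into plasma. It had 488, 463 and 306 CPM in AAV8-IGFBP1 replicates 1 to 3 and 514, 647, 646 and 511 CPM in AAV8-Null replicates 1 to 4. All AAV8-IGFBP1 libraries lay below all AAV8-Null libraries, but replicate 1 was close to AAV8-Null replicates 1 and 4. The means were 419 ± 98.9 CPM in AAV8-IGFBP1 (SD, n = 3) and 579.6 ± 77.3 CPM in AAV8-Null (SD, n = 4). For Gsn the log2 fold change was -0.47 (SE 0.18, 95% interval -0.88 to -0.058), with an unadjusted edgeR p of 0.0302 and an edgeR adjusted p of 0.337, above 0.05. It was -0.28 without AAV8-IGFBP1 replicate 3 and -0.23 without both libraries numbered 3. Of 7 tested genes of the gelsolin family 0 were called by any of the 3 tools, and 1 lower (Gsn) and 1 higher had an unadjusted edgeR p under 0.05; the median was -0.12. The higher one was Scin, the gene of the related protein adseverin (0.61, edgeR adjusted p = 0.303), and Flii (-0.12, 0.396) and Capg (-0.38, 0.476) came next.

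Cpxm1 had the lowest counts with Dpp4, 67 to 169 per library. It was measured at 1.63, 1.77 and 1.48 CPM in AAV8-IGFBP1 replicates 1 to 3 and at 2.62, 3.27, 3.27 and 2.90 CPM in AAV8-Null replicates 1 to 4. The groups were well separated and each was tight. It averaged 1.63 ± 0.141 CPM in AAV8-IGFBP1 (SD, n = 3) and 3.02 ± 0.315 CPM in AAV8-Null (SD, n = 4). Cpxm1 fell by 0.89 on the log2 scale (log2 fold change -0.89, SE 0.15, 95% interval -1.23 to -0.54, edgeR adjusted p = 0.0433). The call was lost without each of the 7 libraries in turn (edgeR adjusted p 0.0689 to 0.156), although the log2 fold change stayed between -0.95 and -0.83. It was also lost with limma-voom (limma adjusted p = 0.0613), and kept with DESeq2 (0.000766). Among 7 tested metallocarboxypeptidase genes Cpxm1 was the 1 called lower and 0 were called higher, with a median log2 fold change of -0.037. Aebp1, a secreted relative with a discoidin domain, had a log2 fold change in the other direction (0.92, edgeR adjusted p = 0.169), Cpn1 had -1.14 (0.352) and Cpd -0.069 (0.718). DESeq2 called 1 member of that list lower and 1 higher.

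**Figure D2:**
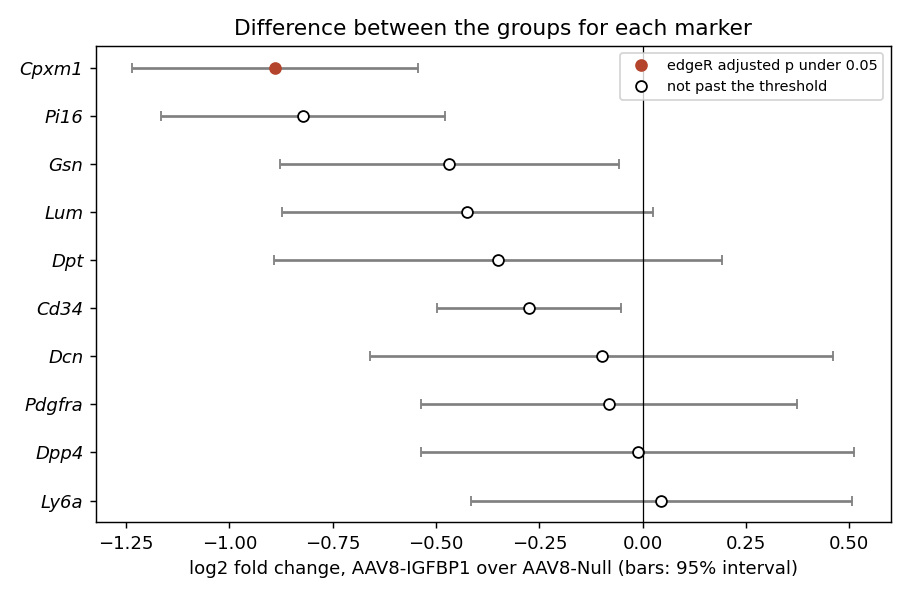
Log2 fold change of each marker (AAV8-IGFBP1 over AAV8-Null) with its approximate 95% interval from edgeR. Cpxm1 (-0.89, filled) is the marker past the threshold, Pi16 (-0.82) has an interval of similar width just beside it, and the intervals of Pdgfra, Ly6a, Dpp4, Dcn, Dpt and Lum include 0.

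**Figure D3:**
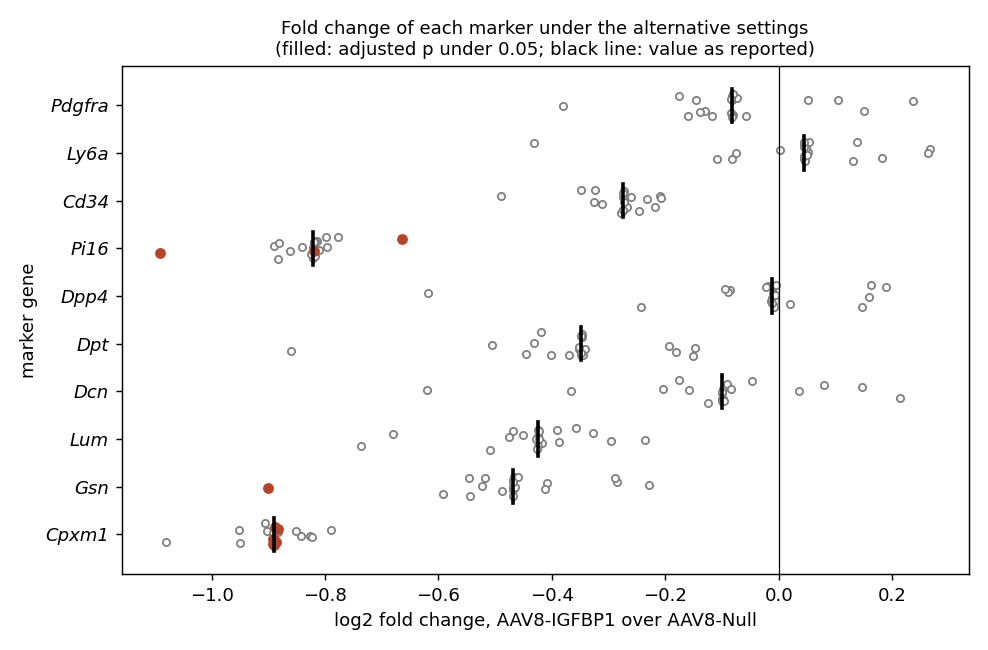
Log2 fold change of each marker (AAV8-IGFBP1 over AAV8-Null) under each of 20 alternative settings, 1 point a setting, with the reported value as a black line. Cpxm1 runs from -1.08 to -0.79 and is past the threshold in 8 settings, Pi16 runs from -1.09 to -0.66 and is past it in 3, and Pdgfra, Ly6a, Dcn and Dpp4 have points on both sides of 0.

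Read across the libraries, most of the markers were high and low in the same libraries, in an order that followed the groups in part. AAV8-Null replicates 2 and 3 were among the highest pair of libraries for 8 of the 10 markers each, and between them held the highest value of 9. AAV8-IGFBP1 replicate 3 was among the lowest 3 libraries for all 10 markers and the lowest for 6. AAV8-IGFBP1 replicate 1, in contrast, was above the marker's own mean for 5 of 10 and among the highest pair for 4 (Pdgfra, Ly6a, Dcn and Dpp4). The mean of the 10 centred log2 levels was 0.030, -0.17 and -0.44 in AAV8-IGFBP1 replicates 1 to 3 and -0.015, 0.35, 0.31 and -0.067 in AAV8-Null replicates 1 to 4, so that the groups overlapped.

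**Figure D4:**
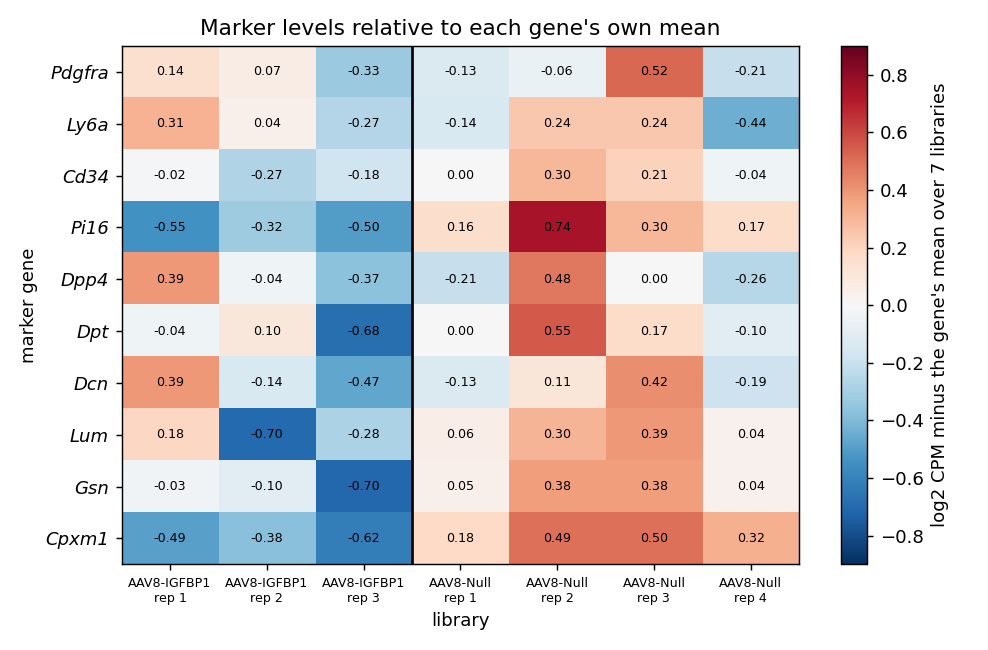
Log2 CPM of each marker in each library, less that marker's mean over the 7 libraries; the vertical line parts AAV8-IGFBP1 (left) from AAV8-Null (right). The rows of Pi16, Gsn and Cpxm1 are below 0 in all 3 AAV8-IGFBP1 libraries and above 0 in all 4 AAV8-Null libraries, while Pdgfra, Ly6a, Dpp4, Dcn and Lum are above 0 in AAV8-IGFBP1 replicate 1.

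Cd34 and Gsn were closest to this mean profile, with root mean square differences of 0.117 and 0.118 log2 units over the 7 libraries. Pi16 and Cpxm1 were farthest from it (both 0.291), and the other 6 lay between 0.170 and 0.223. Outside the panel, the 5 genes of 10230 searched whose profile was nearest were P3h3 (root mean square difference 0.044), Plac9a (0.056), Antxr2 (0.056), Timp2 (0.062) and Homer3 (0.063). None of these 5 passed the test between the groups (edgeR adjusted p 0.351 to 0.574). Nearest to Pdgfra alone were Ticam1 (0.075), Adcy7 (0.076) and Thbs3 (0.083).

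How far a marker moved apart from the lineage receptor is described by its ratio to Pdgfra within each library. The log2 ratio of Cpxm1 to Pdgfra averaged -3.03 ± 0.172 in AAV8-IGFBP1 (SD, n = 3) and -2.23 ± 0.266 in AAV8-Null (SD, n = 4), a difference of -0.80. The groups did not overlap for this ratio or for that of Gsn (difference -0.42), and they overlapped for the other 7. The share of all genes whose ratio to Pdgfra did not overlap was not worked out, so this count cannot be set against it. For Pi16 the difference was -0.73, and the overlap came through AAV8-Null replicate 3. Dpp4 relative to Pdgfra differed by 0.062, with ratios of -2.11 to -1.76 in AAV8-IGFBP1 and -2.52 to -1.47 in AAV8-Null. No test is given: the ratios were chosen after the values were seen, and the smallest p that 35 splits of 7 libraries allow, 0.0286, could not pass for a single ratio once adjusted over 9. Whether Cpxm1 or Pi16 differed in response from Pdgfra is thus undecided.

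Genes of the same cells outside the panel are given by lists that leave out collagens, except for Col4a1 among the Cxcl14-type progenitor genes. Of 35 tested other fibroblast markers 30 had a log2 fold change below 0 (median -0.36), 0 were called by edgeR or limma-voom, 5 were called lower by DESeq2, and 11 had an unadjusted edgeR p under 0.05, all lower. The lowest p-values were those of Fbn1, the fibrillin gene (-0.72, edgeR adjusted p = 0.112), Entpd2, an ecto-nucleotidase gene (-0.68, 0.127), and Cd248, which encodes the mesenchymal surface protein endosialin (-1.14, 0.136). Their mean level followed the same libraries as the panel: -0.0029, -0.11 and -0.51 in AAV8-IGFBP1 replicates 1 to 3 and 0.022, 0.26, 0.38 and -0.039 in AAV8-Null replicates 1 to 4. The median was -0.12 without both libraries numbered 3.

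The 13 tested genes of Cxcl14-type progenitors had a median of -0.23 (-0.38 without AAV8-IGFBP1 replicate 2, -0.12 without both libraries numbered 3); 0 were called by edgeR or limma-voom, 3 lower by DESeq2, and 5 had an unadjusted edgeR p under 0.05, all lower. Cxcl12, a chemokine gene of stromal cells, had -0.39 (edgeR adjusted p = 0.0637), Smoc2, a matrix protein gene, -0.60 (0.115), and Crispld2 -0.49 (0.165). Activated fibroblast genes lay on both sides of 0: of 16 tested, 12 lay below 0 (median -0.28), 0 were called by edgeR or limma-voom, and DESeq2 called 1 lower and 1 higher, with 2 lower and 1 higher at an unadjusted edgeR p under 0.05. Their median was -0.44 without AAV8-IGFBP1 replicate 1, -0.0028 without AAV8-IGFBP1 replicate 3, 0.17 without both libraries numbered 3 and 0.049 with the tenocyte level as covariate. Acta2, the smooth muscle actin gene, had -1.20 (edgeR adjusted p = 0.0764), Aebp1 0.92 (0.169) and Fstl1 -0.52 (0.319). In the TGF-beta list of 16 genes, whose median was 0.033, 0 were called by edgeR or limma-voom and DESeq2 called 1 lower and 1 higher. Tgfb3 lay higher (0.37, edgeR adjusted p = 0.0588) and Tgfb2 lower (-0.42, 0.126) without passing the test, and 3 genes lower and 2 higher had an unadjusted edgeR p under 0.05.

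**Figure D5:**
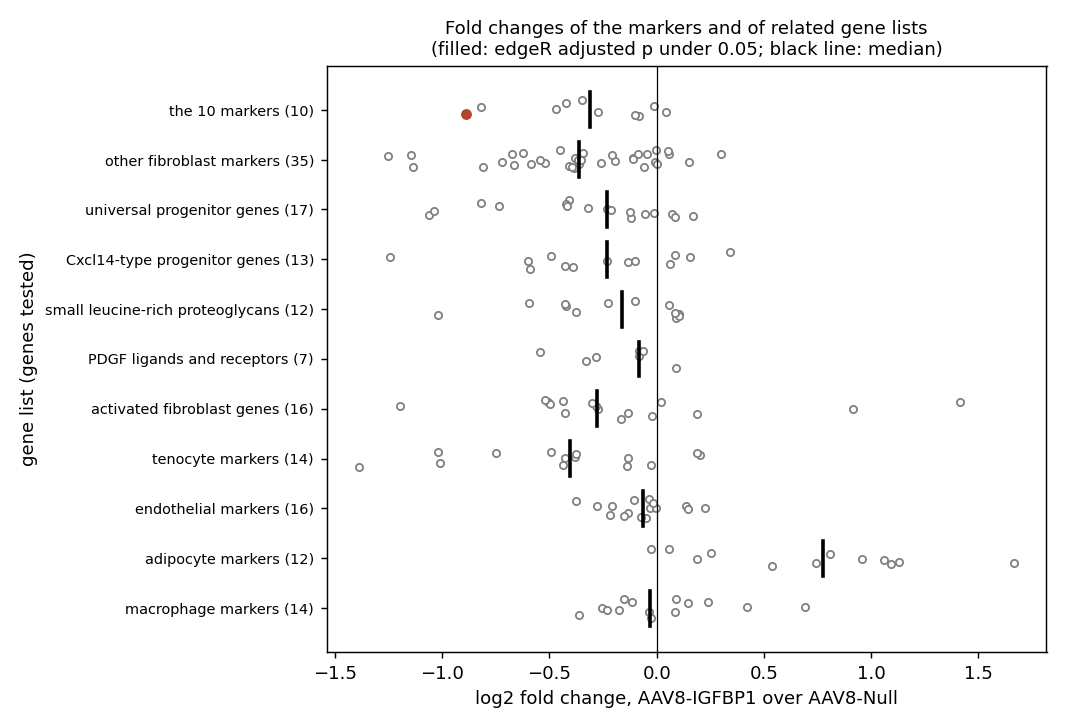
Log2 fold change (AAV8-IGFBP1 over AAV8-Null) of every tested gene in the 10 markers and in related lists, 1 point a gene, with the list's median as a black line. The medians of the 10 markers (-0.31) and of the other fibroblast markers (-0.36) lie to the left of 0 with the tenocyte markers (-0.41, but 0.28 without both libraries numbered 3), that of endothelial markers (-0.062) lies near 0, and that of adipocyte markers (0.78) lies to the right. Lists of other cells that are not drawn had medians below 0 for satellite cell (-0.41), smooth muscle and pericyte (-0.44) and Schwann cell markers (-0.24). The same held for mesothelial and nerve sheath markers (-0.16) and slow fibre genes (-1.24), while myofibre markers lay above 0 (0.080).

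The remaining lists bear on what fibro-adipogenic progenitors secrete or become and on other cells in the sample. Fibroblast trophic factors (18 tested, median -0.19) and adipogenic regulators (14 tested, median -0.065) had 0 genes called by edgeR or limma-voom; DESeq2 called 1 trophic factor lower and 1 higher and 0 adipogenic regulators. At an unadjusted edgeR p under 0.05 there were 3 lower and 5 higher trophic factors, Igf1 (0.60, edgeR adjusted p = 0.177) and the activin antagonist gene Fst (-0.69, 0.188) among them, and 2 lower and 1 higher adipogenic regulators, led by Wnt10b (-1.30, 0.188). Adipocyte markers summed to 1984 to 3917 CPM in AAV8-IGFBP1 and 1721 to 2071 CPM in AAV8-Null (median log2 fold change 0.78, and -0.084 without AAV8-IGFBP1 replicate 2); 0 of 12 were called by edgeR or limma-voom, DESeq2 called 2 higher, and 2 had an unadjusted edgeR p under 0.05. Macrophage markers summed to 63.9 to 118 CPM in AAV8-IGFBP1 and 75.6 to 122 CPM in AAV8-Null, with 0 of 14 called by any of the 3 tools and 0 at an unadjusted edgeR p under 0.05. Satellite cell and smooth muscle markers separated the groups in their mean level, which was -0.29 to -0.17 in AAV8-IGFBP1 and 0.10 to 0.23 in AAV8-Null for 12 satellite cell genes and -0.33 to -0.18 in AAV8-IGFBP1 and 0.035 to 0.33 in AAV8-Null for 12 smooth muscle and pericyte genes. The universal progenitor genes, which include Pi16 and Dpp4, also separated the groups, at -0.30 to -0.072 in AAV8-IGFBP1 and -0.016 to 0.29 in AAV8-Null. Cxcl14-type progenitor genes did so too, at -0.36 to -0.036 in AAV8-IGFBP1 and 0.010 to 0.26 in AAV8-Null. In summed CPM the groups overlapped for the Cxcl14-type list (863 to 1020 in AAV8-IGFBP1, 874 to 1193 in AAV8-Null). They also overlapped for the smooth muscle list (486 to 514 and 492 to 564). The satellite cell sums (123 to 130 and 140 to 154) and universal progenitor sums (725 to 822 and 826 to 872) did not overlap. How often a list's mean level separates the groups was not worked out. By edgeR 1 gene fell in the satellite cell list, Sdc4, a syndecan gene (-0.99, edgeR adjusted p = 0.0167). In the smooth muscle list 1 gene fell, Tagln, the transgelin gene of smooth muscle (-1.10, edgeR adjusted p = 0.00985). DESeq2 called 3 satellite cell and 5 smooth muscle genes lower, limma-voom 1 lower in each list, and each list had 7 genes lower and 1 higher at an unadjusted edgeR p under 0.05. Among 12 Schwann cell markers 11 lay below 0 (median -0.24); 0 were called by edgeR or limma-voom, DESeq2 called 3 lower, and 4 were lower at an unadjusted edgeR p under 0.05, led by the myelin genes Mal (-1.31, edgeR adjusted p = 0.136) and Pmp22 (-0.46, 0.187). The 9 mesothelial and nerve sheath markers summed to 8.14 to 10.6 CPM in AAV8-IGFBP1 and 10.8 to 12.5 CPM in AAV8-Null; of the 5 tested, 0 were called by any of the 3 tools and 1, Sfrp4, was lower at an unadjusted edgeR p under 0.05 (-0.81, edgeR adjusted p = 0.368). Slow fibre genes such as Myh7 had a median log2 fold change of -1.24 and a mean level of -1.23 to -0.0052 in AAV8-IGFBP1 and -0.36 to 1.03 in AAV8-Null, with 0 of 16 called by edgeR or limma-voom, 1 lower by DESeq2 and 8 lower at an unadjusted edgeR p under 0.05. With that level as a covariate Pi16 (-1.09, edgeR adjusted p = 0.0356) and Gsn (-0.90, 0.0477) passed the test and Cpxm1 (-1.08, 0.0808) did not. The medians of the Ly6, dipeptidyl peptidase, metallocarboxypeptidase, TGF-beta, trophic factor, adipogenic and macrophage lists, which lay between -0.19 and 0.045, changed sign with 1 library left out. The part of the satellite, smooth muscle, Schwann, mesothelial, nerve sheath, adipocyte and macrophage cells in the markers' values was not tested.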

How the data were processed

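The 7 libraries of quadriceps RNA, 3 AAV8-IGFBP1 and 4 AAV8-Null, were grouped by their labels. Per the labels' protocols, RNeasy Mini columns gave total RNA, and a Universal Plus mRNA-Seq kit turned it into libraries. What the authors deposited is a gene table of unnormalized estimated counts. The submitters' processing notes name, without roles, Salmon 1.10.1, STAR 2.7.9a, Trim Galore 0.6.7, cutadapt 3.4, R 4.2.2 and the build GRCm39. Which annotation release and strand setting were used is not given in the sources used here. Overlapping, antisense and near-identical genes could therefore share reads.

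Estimated counts were rounded and tested with edgeR 4.0.16 in R 4.3.3: filterByExpr (minimum count 10, minimum total 15), TMM scaling, estimateDisp, glmQLFit with robust TRUE and legacy FALSE, and glmQLFTest with group as its only term; p-values were adjusted by Benjamini-Hochberg over 14935 genes, with a threshold of 0.05. CPM are counts per 1000000 of the scaled library total, and log2 CPM use a prior count of 2; a count of 0 allows up to 3 counts (0.0580 to 0.0786 CPM), which covers counting error only. Standard errors come from dividing the log2 fold change by √F, and intervals use the test's degrees of freedom; both are approximate. The steps were tested on simulated data. No pair of libraries in a group was alike within sampling noise (chi-square over its degrees of freedom 20.4 to 54.6).

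The members and lists were chosen with earlier results of these data known. All 10 members are named; each list gives up to 3 non-members with the lowest p and any gene past the threshold, and the nearest profiles are by root mean square difference of centred log2 CPM among genes whose log2 CPM averaged 1 or more. The ratios between markers were chosen after the values were seen. Alternatives were DESeq2 1.42.0, limma 3.58.1 voom, other scalings, filters and dispersion settings, the replicate number as a block, left-out libraries and 2 tissue covariates. Sequences come from RefSeq on GRCm38.p6.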

Additional observations from a re-analysis of the deposited data

Results flagged for a closer look

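Pdgfra in AAV8-Null replicate 3, at 20.1 CPM, stood far from the other 3 AAV8-Null libraries (12.1 to 13.5 CPM). Its gap to the nearest of them, as a share of the group's range, was just past Dixon's 95% critical value for 4 samples. Chance flags about 1 in 20 such groups, and 10 markers were looked at. The same library had the highest tenocyte marker level of the 7 (0.97), and the log2 fold change of Pdgfra without it was 0.11 in place of -0.082; the cause was not tested.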

How the results depend on the processing

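The count of markers past the threshold (1, lower) was unchanged with DESeq2 size factors, upper-quartile scaling, scaling that left out mitochondrial genes and the 10 most abundant, no filter, a stricter filter, robust FALSE and, chosen after seeing the data, edgeR's older quasi-likelihood method. It was 2 with the DESeq2 Wald test (Cpxm1 and Pi16) and 2 after adding the slow fibre level (Pi16 and Gsn). It was 0 with limma-voom, with the replicate block, without both libraries numbered 3 and with the tenocyte level as covariate, and ran from 0 to 1 with 1 library left out; without AAV8-Null replicate 2 the 1 marker was Pi16. No marker was called higher in any of these. Markers whose groups did not overlap numbered 3 to 5 with 1 library left out, where 15.9% to 22.4% of all genes did not overlap; the 5 came without AAV8-IGFBP1 replicate 1 (19.4% of all genes). The median (-0.31 on the log2 scale) was -0.39 to -0.20 with 1 library left out, and -0.68 after adding the slow fibre level. It was -0.19 without both libraries numbered 3 and also -0.19 with the tenocyte level as covariate.

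Signs turned in 4 markers near 0. With the replicate block Ly6a was at -0.082, and after adding the slow fibre level at -0.43; without 1 library it ran from -0.11 to 0.18. Left-out libraries put Pdgfra between -0.18 and 0.11, Dcn between -0.37 and 0.080 and Dpp4 between -0.24 and 0.19. Without both libraries numbered 3 the values were 0.24 for Pdgfra, 0.21 for Dcn and 0.15 for Dpp4, and with the tenocyte level as covariate 0.15, 0.15 and 0.16. The cause was not tested.

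The deviations of same-numbered libraries from their group means correlated at -0.098, 0.068 and -0.057, and those of unlike-numbered libraries at -0.105 to 0.149. Whether a number marks a shared batch, litter or day is not stated, and so few libraries cannot settle it. With the number as a block, Cpxm1 was at -0.90 (edgeR adjusted p = 0.194) and 4 genes in all were called, against 87 without it. Over all genes DESeq2 called 451, no filter 157, adding the slow fibre level 56, dropping the pair of libraries numbered 3 gave 39, and leaving out 1 library 14 to 79. With 67 to 169 counts for Cpxm1 and 118 to 249 for Dpp4, counting error is a larger part of their values than for the others.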
